A study of Homo sapiens with 12 samples.

Results

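The EGF family of growth factor ligands and its ERBB receptors were followed in human hepatocellular carcinoma cells in which the circular RNA circASH2 was silenced. The set held 10 genes of 23583 features in the count table, namely the ligands AREG, BTC, EREG, HBEGF, TGFA and EGF and the receptors EGFR, ERBB2, ERBB3 and ERBB4. It was chosen on measured values, since a rise of AREG in Huh7 and a rise of BTC in HCCLM3 were known when the family was picked, so those differences are given as values without a test. RNA sequencing covered HCCLM3 cells with si-circASH2, HCCLM3 cells with si-NC, Huh7 cells with si-circASH2 and Huh7 cells with si-NC, with 3 libraries in each group. HCCLM3 is a hepatocellular carcinoma line selected for metastasis, Huh7 is an established hepatocellular carcinoma line, and si-NC is the arm without knock-down. The sources used here give neither the siRNA dose nor the time after transfection. They do not say that replicates were grown as separate cultures either, so a p-value here speaks of the scatter among these 12 libraries, which may be technical.

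EGF-family ligands are made as membrane-bound precursors that metalloproteases shed from the cell surface. AREG, TGFA and EGF bind EGFR, while BTC, EREG and HBEGF also bind ERBB4. Receptors act in pairs: ERBB2 has no known ligand of its own and ERBB3 has a weak kinase and binds neuregulins, so both signal mainly with a partner, through the RAS to ERK and PI3K to AKT pathways. EGFR is abundant in hepatocytes, and its ligands take part in liver regeneration.

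Each library held 29006781 to 30858895 counts, so a floor of 3 counts was worth 0.0981 to 0.105 CPM (counts relative to library size, scaled with TMM factors of 0.985 to 1.02). The circle itself was not measured by these gene counts. ASH2L, the gene that gives the circle its name, was lower with si-circASH2 in both lines, with a log2 fold change of -0.24 ± 0.0536 in HCCLM3 (SE; adjusted p = 0.0014) and -0.19 ± 0.0476 in Huh7 (adjusted p = 0.00304; edgeR quasi-likelihood test). Summed over 11 hepatocyte markers, HCCLM3 held 199 to 202 CPM with si-circASH2 and 190 to 197 CPM with si-NC, against 35100 to 35800 CPM and 38300 to 38400 CPM in the Huh7 groups, with GPC3 at 0 counts in every HCCLM3 library. The HCCLM3 libraries thus held little of the hepatocyte signal that their label would carry. The keratin-led epithelial sum of 4 genes was 5470 to 5600 and 5340 to 5510 CPM in HCCLM3, and 3610 to 3850 and 2930 to 3090 CPM in Huh7. The 4 genes did not move together. With si-NC, 2 were higher and 2 lower in HCCLM3 than in Huh7 (adjusted p under 0.05, edgeR quasi-likelihood test, median log2 -1.57). In each HCCLM3 group, 1 of them averaged under 1 CPM, against 0 in each Huh7 group. Of markers of other cell types, 7 fibroblast genes summed to 49.5 to 53.9 CPM against 35.9 to 38.4 CPM in HCCLM3 and to 59.9 to 61.1 CPM against 37.9 to 43.3 CPM in Huh7 (si-circASH2 against si-NC), with DCN at 0 in Huh7 and COL1A2 and PDGFRB at 0 in HCCLM3 si-NC. The 6 endothelial genes summed to 20 to 22.2 against 26.2 to 27.9 CPM in HCCLM3 and 23.8 to 24.5 against 24.1 to 27.7 CPM in Huh7, with CDH5 at 0 in HCCLM3 and KDR at 0 in Huh7. The 7 leukocyte genes summed to 171 to 208 against 143 to 165 CPM in HCCLM3, nearly all of it CD68, and 337 to 365 against 383 to 419 CPM in Huh7, most of it LYZ, with CD3E at 0 in all 12 libraries. The part of these markers in the results on the family was not tested.

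Of the 10 members, 9 passed the filter on low counts, ERBB4 being the exception, and TGFA and EREG passed only through HCCLM3, where they are high. A gene is called higher or lower where its edgeR quasi-likelihood p, adjusted by the Benjamini-Hochberg method over all 16946 genes tested, is under 0.05. In HCCLM3, si-circASH2 left 2 members higher than si-NC, BTC and ERBB3, and 3 lower, AREG, EREG and EGF. Among all genes tested there, 15.1% were called higher and 15.5% lower. In Huh7, 4 members were higher, AREG, BTC, HBEGF and EGF, and 1 was lower, ERBB3, against 16.3% of all genes called higher and 15.1% lower. These counts include BTC in HCCLM3 and AREG in Huh7, which chose the set, and nothing is read from them beyond the values of each gene. The libraries of the 2 arms did not overlap for 6 members in HCCLM3, beside 43.7% of all genes, and for 5 members in Huh7, beside 42.7% of all genes.

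**Figure D1:**
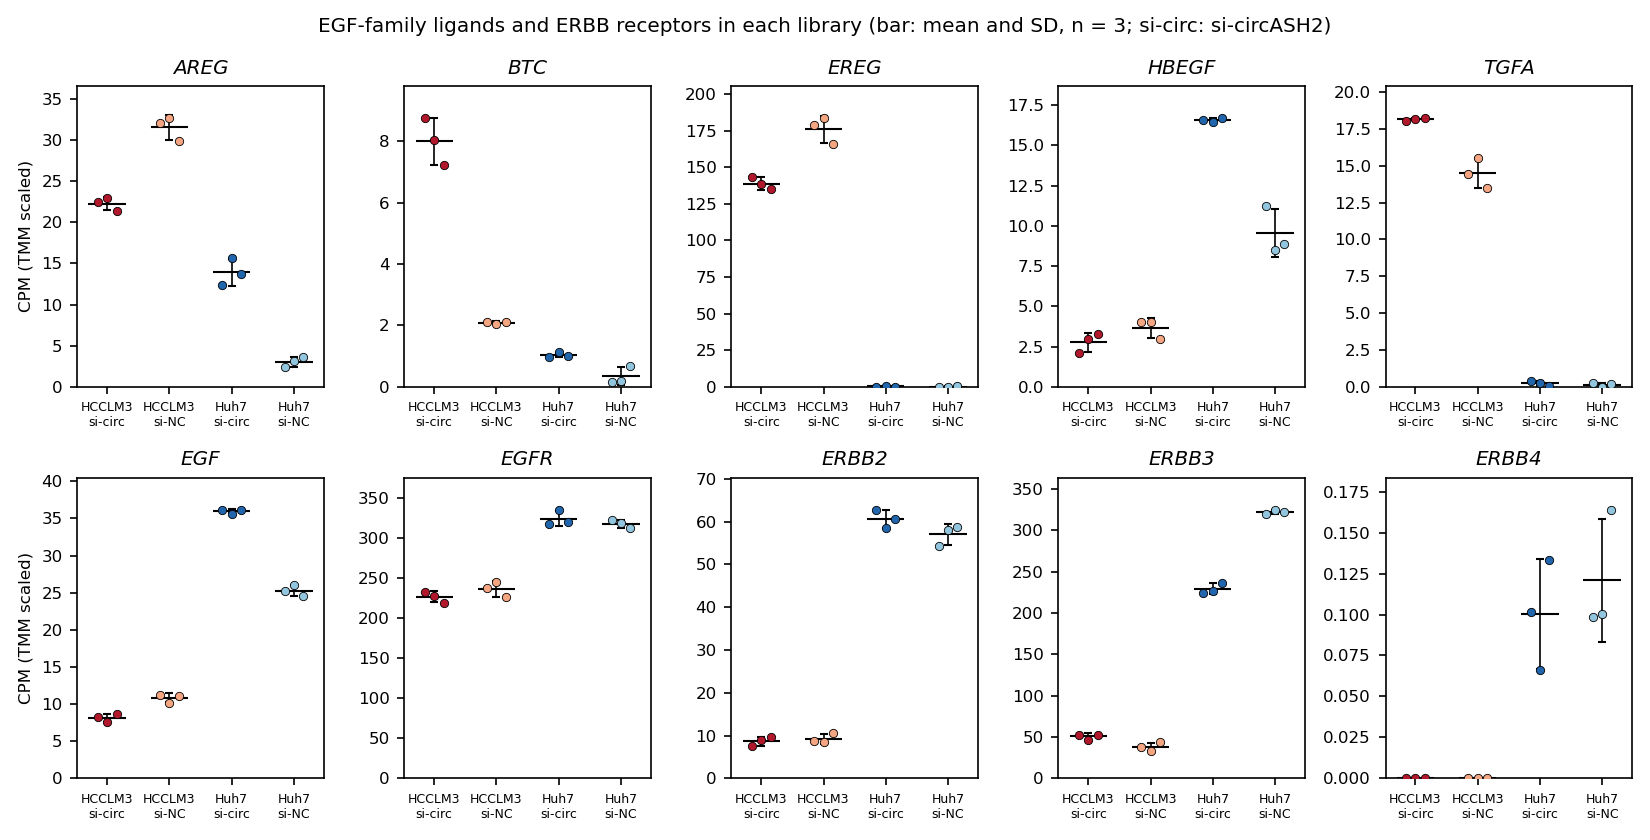
CPM of the 10 members in each of the 12 libraries, with a panel per gene, a linear axis from 0 in each panel, and bars for the mean and SD of 3 libraries. AREG stands at 21.4 to 22.9 CPM in HCCLM3 si-circASH2, below HCCLM3 si-NC at 29.9 to 32.7 CPM, and at 12.3 to 15.6 CPM in Huh7 si-circASH2, above Huh7 si-NC at 2.36 to 3.61 CPM. ERBB4 is at 0 in all HCCLM3 libraries.

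AREG encodes amphiregulin, a ligand of EGFR that is shed by ADAM17. The HCCLM3 libraries had 22.5, 22.9 and 21.4 CPM with si-circASH2, against 32.1, 32.7 and 29.9 CPM with si-NC. AREG fell there by 0.50 ± 0.0868 on the log2 scale (adjusted p = 8.71e-05, edgeR quasi-likelihood test), with all 3 silenced libraries below all 3 si-NC libraries. In Huh7 the order was turned round. The Huh7 libraries had 12.3, 15.6 and 13.8 CPM with si-circASH2, against 2.36, 3.17 and 3.61 CPM with si-NC. Each Huh7 si-circASH2 library stood far above each si-NC library, and the fitted difference was 4.56-fold (log2 2.19 ± 0.117), a value by which the set was chosen. The knockdown log2 fold change was 2.69 ± 0.147 lower in HCCLM3 than in Huh7, which is a description because it contains the Huh7 contrast. With si-NC, the fitted AREG level was 10.3-fold higher in HCCLM3 than in Huh7 (log2 3.37 ± 0.111), likewise a description, since it shares the Huh7 si-NC libraries with the contrast that chose the set.

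EREG, which encodes epiregulin, is the neighbour of AREG on chromosome 4. In HCCLM3 it had 143.5, 138 and 135 CPM with si-circASH2, against 179, 184 and 166 CPM with si-NC. The groups did not overlap, and EREG fell by 0.34 ± 0.0758 on the log2 scale (adjusted p = 0.00388, edgeR quasi-likelihood test). On the deposited FPKM, limma on log2(FPKM + 0.1) gave a log2 difference of -0.34 that missed the threshold (adjusted p = 0.159), and limma on log2(FPKM + 1) gave -0.33 and kept the call (adjusted p = 0.000553). In Huh7 the gene was close to the floor, with 5, 13 and 4 counts with si-circASH2, against 2, 0 and 9 counts with si-NC. These overlap, and the fitted log2 difference of 0.995 ± 0.739 did not pass the test (adjusted p = 0.354). It did pass without Huh7 si-NC replicate 3, the library with 9 counts (log2 2.74, adjusted p = 0.0134). Without Huh7 si-circASH2 replicate 2, the library with 13 counts, it shrank to log2 0.31 (adjusted p = 0.848). The interval of the Huh7 difference ran from -0.609 to 2.6, so a change of either sign is within it at this depth. With si-NC, the HCCLM3 level was 1410-fold that of Huh7 in the fit (log2 10.46), given without a standard error. This ratio rests on 11 counts in the 3 Huh7 libraries, too few for the standard error used here. It became log2 12.20 without Huh7 si-NC replicate 3 and log2 9.90 without Huh7 si-NC replicate 2. No test is given for it, since EREG passed the filter through HCCLM3.

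BTC encodes betacellulin, a ligand of EGFR and ERBB4. In HCCLM3 it had 8.75, 8.03 and 7.22 CPM with si-circASH2, against 2.12, 2.03 and 2.13 CPM with si-NC. The fitted difference was 3.82-fold (log2 1.93 ± 0.227), again a value that chose the set. Huh7 gave 29, 34 and 30 BTC counts with si-circASH2 (0.982 to 1.13 CPM), against 5, 6 and 21 counts with si-NC (0.164 to 0.689 CPM). BTC thus rose in Huh7 as well, by 1.55 ± 0.341 on the log2 scale (2.92-fold, adjusted p = 0.00104, edgeR quasi-likelihood test), with no overlap between the arms. Huh7 si-NC replicate 3, at 21 counts, held most of the control signal, and without it the log2 fold change was 2.48 (adjusted p = 4.17e-06). Without Huh7 si-NC replicate 1 or 2 the log2 fold change was 1.21 or 1.27 (adjusted p = 0.0103 for each). The HCCLM3 change minus the Huh7 change was 0.38 ± 0.434 on the log2 scale, which is a description because it contains the HCCLM3 contrast that chose the set. It fixes neither which line moved more nor that the lines moved alike. With si-NC, the fitted BTC level was 5.89-fold higher in HCCLM3 than in Huh7 (log2 2.56 ± 0.313). This difference was log2 3.49 without Huh7 si-NC replicate 3 and log2 2.22 without Huh7 si-NC replicate 1. It is given without a test, since it shares the HCCLM3 si-NC libraries with the contrast that chose the set.

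AREG, EREG and BTC lie in 1 cluster on the long arm of chromosome 4, at chr4:74445134-74455009 (plus strand), chr4:74365143-74388751 (plus strand) and chr4:74744759-74794686 (minus strand) in GENCODE 29 on GRCh38. EREG starts 80.0 kb before AREG, and the body of BTC begins 299.6 kb after the AREG start. The 250 bases before the start of each, from RefSeq on GRCh38.p14 and read 5′ to 3′ on the gene's strand, are shown because AREG and EREG fell in HCCLM3 while BTC, in the same cluster, was higher there. EGF, which passed the test with opposite signs in the lines, is added.
AREG, chr4:74444886-74445135, plus strand: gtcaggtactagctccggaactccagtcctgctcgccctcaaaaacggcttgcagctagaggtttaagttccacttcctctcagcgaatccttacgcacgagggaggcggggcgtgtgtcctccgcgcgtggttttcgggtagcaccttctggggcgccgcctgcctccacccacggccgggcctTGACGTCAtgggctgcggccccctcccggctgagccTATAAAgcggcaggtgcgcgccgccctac
EREG, chr4:74364895-74365144, plus strand: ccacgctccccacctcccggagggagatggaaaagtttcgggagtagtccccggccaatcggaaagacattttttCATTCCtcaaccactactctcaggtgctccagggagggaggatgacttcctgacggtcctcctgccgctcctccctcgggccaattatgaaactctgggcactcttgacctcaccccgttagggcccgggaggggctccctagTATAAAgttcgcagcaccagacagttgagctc
BTC, chr4:74794524-74794773, minus strand: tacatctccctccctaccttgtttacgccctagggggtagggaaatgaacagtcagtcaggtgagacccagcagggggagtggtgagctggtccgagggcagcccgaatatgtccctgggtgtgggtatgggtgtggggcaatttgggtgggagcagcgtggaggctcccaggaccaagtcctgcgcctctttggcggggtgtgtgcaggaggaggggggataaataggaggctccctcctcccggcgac
EGF, chr4:109912633-109912882, plus strand: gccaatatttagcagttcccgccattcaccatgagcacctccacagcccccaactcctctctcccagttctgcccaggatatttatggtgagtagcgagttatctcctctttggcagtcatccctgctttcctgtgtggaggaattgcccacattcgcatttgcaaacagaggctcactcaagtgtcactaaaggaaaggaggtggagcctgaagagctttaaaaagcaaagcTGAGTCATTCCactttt
Capitals mark matches to the cyclic AMP response element word TGACGTCA, the AP-1 word TGACTCA and the TEAD word CATTCC, each on either strand, and to the TATA word TATAAA on the gene's strand. Of 35116 RefSeq promoter windows of 250 bases, 1.65% hold the cyclic AMP word, 4.2% the AP-1 word, 11.9% the TEAD word and 6.8% the TATA word. AREG holds the cyclic AMP word at 65 to 58 bases and the TATA word at 29 to 24 bases before the start. EREG holds CATTCC at 175 to 170 and TATAAA at 32 to 27 bases before the start, the BTC window holds none of the 4 words, and in EGF an AP-1 match at 17 to 11 bases overlaps a CATTCC match at 12 to 7 bases. EGFR, which passed the test in neither knockdown, has 2 windows. The second of them holds the most matches of any member, with 2 to the AP-1 word, 1 to the TEAD word and 2 to the TATA word, and the first holds none. The windows of HBEGF, TGFA, ERBB2 and ERBB4 hold none of the words. A set of 356 tested genes with the cyclic AMP word in a window was defined after the AREG window was seen. Of these, 18.3% were called higher and 19.7% lower in HCCLM3, beside 15.1% and 15.5% of all genes tested. In Huh7, 18% were called higher and 21.1% lower, beside 16.3% and 15.1% of all genes. The median log2 fold changes of the set were -0.000338 in HCCLM3 and -0.00712 in Huh7. Each share of the set was above that of all genes, a difference that was not tested.

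Of 23 other annotated genes around the 3 ligands, 9 were in the count table and 6 passed the filter. Of these, 4 encode chemokines. CXCL5, a neutrophil chemokine, had 26.9 ± 0.993 CPM with si-circASH2 and 28 ± 2.75 CPM with si-NC in HCCLM3, and 52.9 ± 6.21 and 25.7 ± 0.356 CPM in the same arms of Huh7 (SD, n = 3). It rose in Huh7 (log2 1.04 ± 0.0756, adjusted p = 5.13e-10, edgeR quasi-likelihood test) and did not pass the test in HCCLM3 (log2 -0.06 ± 0.0783, adjusted p = 0.662), and the difference between lines passed (log2 -1.10 ± 0.109, adjusted p = 1.68e-07). The other gene called was CXCL1 in HCCLM3, on 7 counts in the silenced libraries and 0 in the si-NC libraries, too few for a fold, and its call was lost with any 1 si-NC library of HCCLM3 left out (adjusted p 0.0551 to 0.0589). MTHFD2L (between the chemokines and EREG), CXCL2, CXCL3 and PARM1 passed in neither line. PARM1 had 15.2 ± 0.296 CPM with si-circASH2 and 11.3 ± 1.43 CPM with si-NC in Huh7 (SD, n = 3), where the arms did not overlap and the log2 difference of 0.42 ± 0.177 missed the threshold (adjusted p = 0.0805, edgeR quasi-likelihood test). Its HCCLM3 counts were 14 with si-circASH2 and 3 with si-NC, summed over 3 libraries, with overlap (adjusted p = 0.116).

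**Figure D2:**
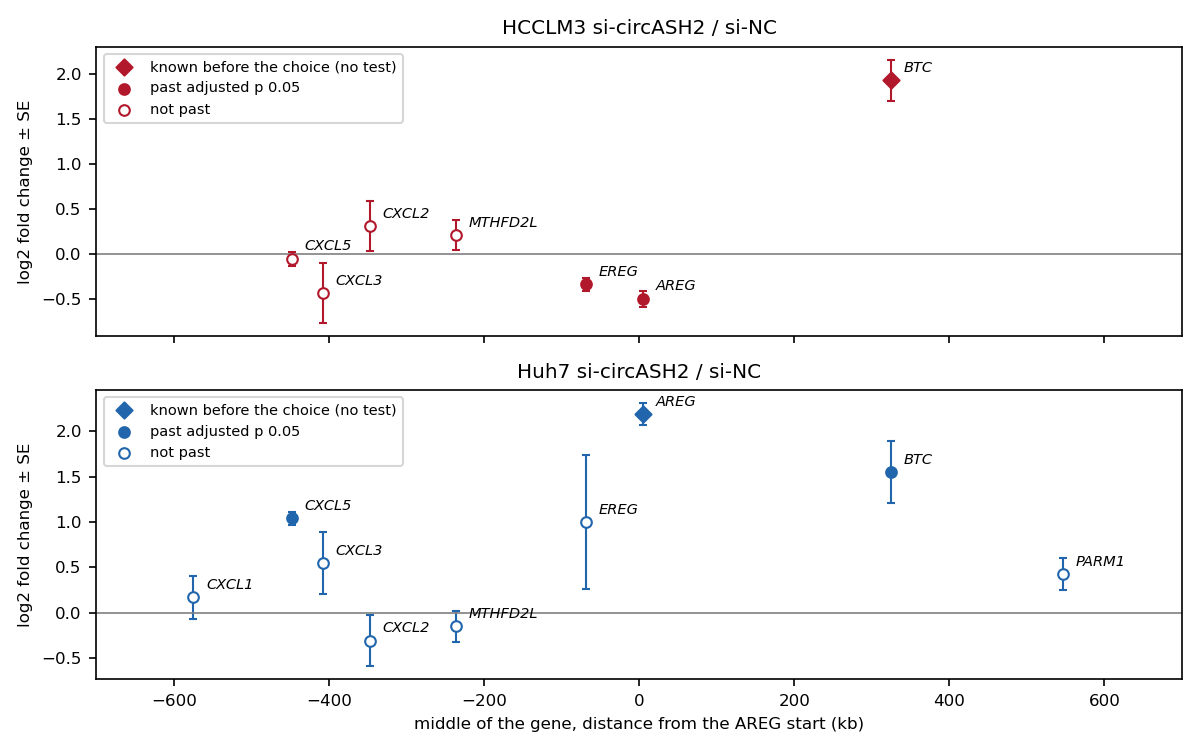
Knockdown log2 fold change (with SE) of the tested genes of the chromosome 4 cluster by distance of the gene's middle from the AREG start in kb, HCCLM3 above Huh7. Diamonds are the 2 values that chose the set, filled points passed an adjusted p of 0.05, and genes with 3 or fewer counts in an arm are left out. EREG and AREG lie below 0 in HCCLM3, at -0.34 and -0.50, and BTC lies above 0 in both lines.

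HBEGF encodes heparin-binding EGF-like growth factor, a ligand of EGFR and ERBB4 (chr5:140332843-140346631, minus strand, GRCh38). In HCCLM3 it had 2.10, 2.95 and 3.26 CPM with si-circASH2, against 4.04, 4.03 and 2.94 CPM with si-NC, and the arms overlapped. The log2 difference of -0.40 ± 0.166 there missed the threshold (adjusted p = 0.0719, edgeR quasi-likelihood test). It passed when HCCLM3 si-NC replicate 3 (-0.54, adjusted p = 0.0225) or HCCLM3 si-circASH2 replicate 3 (-0.53, adjusted p = 0.0364) was left out. Without HCCLM3 si-circASH2 replicate 1 it shrank to -0.24 (adjusted p = 0.334). Without HCCLM3 si-NC replicate 1 or 2 it was -0.33 (adjusted p = 0.224 and 0.217). Its level in Huh7 was 16.6, 16.5 and 16.7 CPM with si-circASH2, against 11.3, 8.52 and 8.86 CPM with si-NC. The silenced libraries were close together and all higher there, and HBEGF rose 1.74-fold (log2 0.80 ± 0.129, adjusted p = 4.06e-05, edgeR quasi-likelihood test). The test of the difference between lines passed, with the HCCLM3 change 1.20 ± 0.21 below the Huh7 change (adjusted p = 0.000195). With si-NC, HBEGF was lower in HCCLM3 than in Huh7 (log2 -1.38 ± 0.146, adjusted p = 6.2e-09).

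EGF, the ligand that gives the family its name (chr4:109912884-110012266, plus strand), passed the test in both lines with opposite signs. In HCCLM3 it had 8.24, 7.56 and 8.63 CPM with si-circASH2, against 11.2, 10.2 and 11.2 CPM with si-NC. In Huh7 it had 36.2, 35.7 and 36.1 CPM with si-circASH2, against 25.2, 26 and 24.5 CPM with si-NC. Neither pair of arms overlapped. EGF fell by 0.41 ± 0.0781 on the log2 scale in HCCLM3 (adjusted p = 0.00024) and rose by 0.51 ± 0.0632 in Huh7 (adjusted p = 1.04e-06), and the difference between lines was -0.92 ± 0.1 (adjusted p = 3.75e-07; edgeR quasi-likelihood test). With si-NC, EGF was lower in HCCLM3 than in Huh7 (log2 -1.22 ± 0.0699, adjusted p = 5.11e-14).

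TGFA encodes transforming growth factor alpha, an EGFR ligand (chr2:70447280-70554193, minus strand). In HCCLM3 it had 18.1, 18.2 and 18.2 CPM with si-circASH2, against 14.5, 15.5 and 13.5 CPM with si-NC. The silenced libraries all stood above the si-NC libraries, but the log2 difference of 0.33 ± 0.15 did not pass the test (adjusted p = 0.111, edgeR quasi-likelihood test), and it passed in 4 of 21 alternatives, DESeq2 among them. In Huh7 it had 11, 8 and 2 counts with si-circASH2 and 8, 0 and 5 counts with si-NC, which overlap (log2 0.70 ± 0.606, adjusted p = 0.433). With si-NC, the fitted TGFA level was higher in HCCLM3 than in Huh7 by 6.62 on the log2 scale, again without a standard error. This difference rests on 13 counts in the 3 Huh7 libraries. It became 7.38 without Huh7 si-NC replicate 1 and 6.06 without Huh7 si-NC replicate 2. As for EREG, the filter kept TGFA through HCCLM3, so no test is given.

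**Figure D3:**
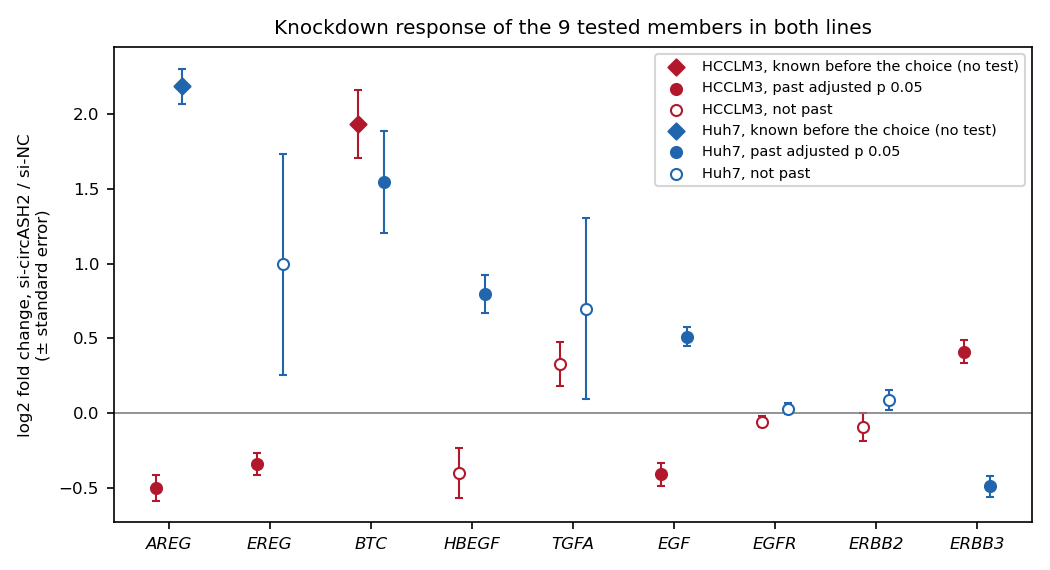
Log2 fold change of si-circASH2 over si-NC, with its standard error, for the 9 tested members in HCCLM3 (red) and Huh7 (blue). Filled circles passed an adjusted p of 0.05, open circles did not, and diamonds are the 2 values that chose the set. AREG, EREG, HBEGF, EGF and ERBB3 lie on opposite sides of 0 in the lines, with EREG open in Huh7 and HBEGF open in HCCLM3. BTC and TGFA lie above 0 in both, TGFA with open circles, and EGFR and ERBB2 lie within 0.10 of 0.

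EGFR, the receptor of all 6 ligands, passed the test in neither knockdown (chr7:55019021-55211628, plus strand). It had 232.5, 227 and 219 CPM with si-circASH2 in HCCLM3, against 237, 245 and 226 CPM with si-NC, and 317, 335 and 319 CPM with si-circASH2 in Huh7, against 322, 318 and 312 CPM with si-NC. The arms overlapped in both lines. The log2 difference was -0.06 with a 95% interval of -0.137 to 0.0155 in HCCLM3 (adjusted p = 0.234) and 0.03 with an interval of -0.0463 to 0.105 in Huh7 (adjusted p = 0.608; edgeR quasi-likelihood test). With si-NC, EGFR was lower in HCCLM3 than in Huh7 (log2 -0.43 ± 0.0367, adjusted p = 1.26e-10). An antisense gene, EGFR-AS1, lies within EGFR, and whether the counting used strand is not given in the sources used here.

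ERBB2, the co-receptor (chr17:39687914-39730426, plus strand), had 7.53, 8.86 and 9.57 CPM with si-circASH2 in HCCLM3, against 8.81, 8.40 and 10.5 CPM with si-NC. The Huh7 values were 62.8, 58.5 and 60.5 CPM with si-circASH2, against 54.2, 58.1 and 58.7 CPM with si-NC. The arms overlapped in both lines, and neither log2 difference passed the test, at -0.10 ± 0.0931 in HCCLM3 (interval -0.289 to 0.0967, adjusted p = 0.492) and 0.09 ± 0.0654 in Huh7 (interval -0.0479 to 0.223, adjusted p = 0.344; edgeR quasi-likelihood test). With si-NC, ERBB2 was lower in HCCLM3 than in Huh7 (log2 -2.62 ± 0.0784, adjusted p = 1.09e-19). PGAP3 and MIEN1 overlap ERBB2 on the opposite strand, so its counts could hold reads of theirs.

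ERBB3, the neuregulin receptor that recruits PI3K (chr12:56076799-56103505, plus strand), changed in the reverse sense to AREG and EGF. In HCCLM3 it had 52.6, 46.4 and 52.8 CPM with si-circASH2, against 37.4, 33.2 and 43.5 CPM with si-NC. In Huh7 it had 224, 227 and 237 CPM with si-circASH2, against 319, 325 and 323 CPM with si-NC. Every silenced library was above every si-NC library in HCCLM3 and below every one in Huh7. ERBB3 rose by 0.41 ± 0.078 in HCCLM3 (adjusted p = 0.00118) and fell by 0.49 ± 0.068 in Huh7 on the log2 scale (adjusted p = 7.97e-05), with a difference between lines of 0.90 ± 0.103 (adjusted p = 2.81e-05; edgeR quasi-likelihood test). With si-NC, ERBB3 was lower in HCCLM3 than in Huh7 (log2 -3.08 ± 0.0767, adjusted p = 2.6e-14). AC034102.2, annotated as protein coding, overlaps ERBB3 on the same strand and is absent from the count table. The ERBB3 counts could therefore hold reads of AC034102.2.

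ERBB4, a second neuregulin receptor (chr2:211375717-212538841, minus strand), was at 0 counts in all 6 HCCLM3 libraries. In Huh7 it had 3, 2 and 4 counts with si-circASH2 and 3, 3 and 5 counts with si-NC. Huh7 thus held 9 counts in total with si-circASH2 and 11 with si-NC. Against a floor of 3 counts over the HCCLM3 group of the same arm, these were 2.99-fold and 3.58-fold higher after scaling. The Huh7 totals are taken as exact there, so neither fold is a lower bound once their counting error is allowed for.

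Over the tested members, the knockdown difference between lines was called with a positive sign for 1, ERBB3, and with a negative sign for 3, AREG, HBEGF and EGF, beside 9.6% and 11.3% of all genes tested. AREG counts here through its Huh7 rise, which chose the set. With si-NC, 4 members were called higher in HCCLM3 than in Huh7, AREG, BTC, EREG and TGFA, and 5 lower, HBEGF, EGF, EGFR, ERBB2 and ERBB3. The lines differ widely, and 41.6% of all genes were called higher in HCCLM3 and 43.6% lower. The 4 called higher are those given above without a test of this contrast, and nothing is read from their count. In bulk RNA, fewer cells with a transcript and less of it per cell cannot be told apart.

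Levels of different genes were compared on the deposited FPKM, which is scaled by transcript length. The 6 ligands summed to 51.7 ± 1.48 FPKM with si-circASH2 and 63.4 ± 2.91 FPKM with si-NC in HCCLM3, and to 22.8 ± 1.53 and 10.5 ± 0.316 FPKM in the same arms of Huh7 (SD, n = 3). EREG held 51.7 ± 0.633% of the ligand sum with si-circASH2 and 53.3 ± 0.206% with si-NC in HCCLM3, against 0.191 ± 0.12% and 0.206 ± 0.262% in Huh7. AREG held 30.9 ± 0.595% and 35.6 ± 0.0808% in HCCLM3 and 42.8 ± 2.9% and 20.6 ± 4.39% in Huh7, with si-circASH2 and with si-NC. The order in HCCLM3 si-NC was EREG, AREG, TGFA, EGF, HBEGF and BTC, and no neighbouring pair overlapped over the 3 libraries. With si-circASH2 in HCCLM3, BTC at 2.34 to 2.85 FPKM stood above EGF at 1.45 to 1.62 FPKM and HBEGF at 0.786 to 1.21 FPKM, next below TGFA at 3.75 to 3.85 FPKM. In Huh7 si-NC the order was EGF at 4.50 to 4.77 FPKM, HBEGF at 3.12 to 4.19 FPKM and AREG at 1.69 to 2.58 FPKM, with BTC, TGFA and EREG at or under 0.208 FPKM, where BTC overlapped TGFA and TGFA overlapped EREG. In Huh7 si-circASH2, AREG led at 8.47 to 11.1 FPKM, above EGF at 6.40 to 6.67 FPKM and HBEGF at 5.92 to 6.20 FPKM, and TGFA and EREG overlapped at the bottom.

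The receptors summed to 30.7 ± 1.13 FPKM with si-circASH2 and 29.7 ± 0.462 FPKM with si-NC in HCCLM3, and to 78.8 ± 2.2 and 94.6 ± 3.66 FPKM in Huh7. EGFR was the most abundant receptor transcript in HCCLM3, at 67.2 ± 1.84% and 72.5 ± 3.67% of the sum, while ERBB3 was the most abundant in Huh7, at 48.1 ± 0.638% and 57.5 ± 1.52%. ERBB3 overlapped no other receptor in any group.

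**Figure D4:**
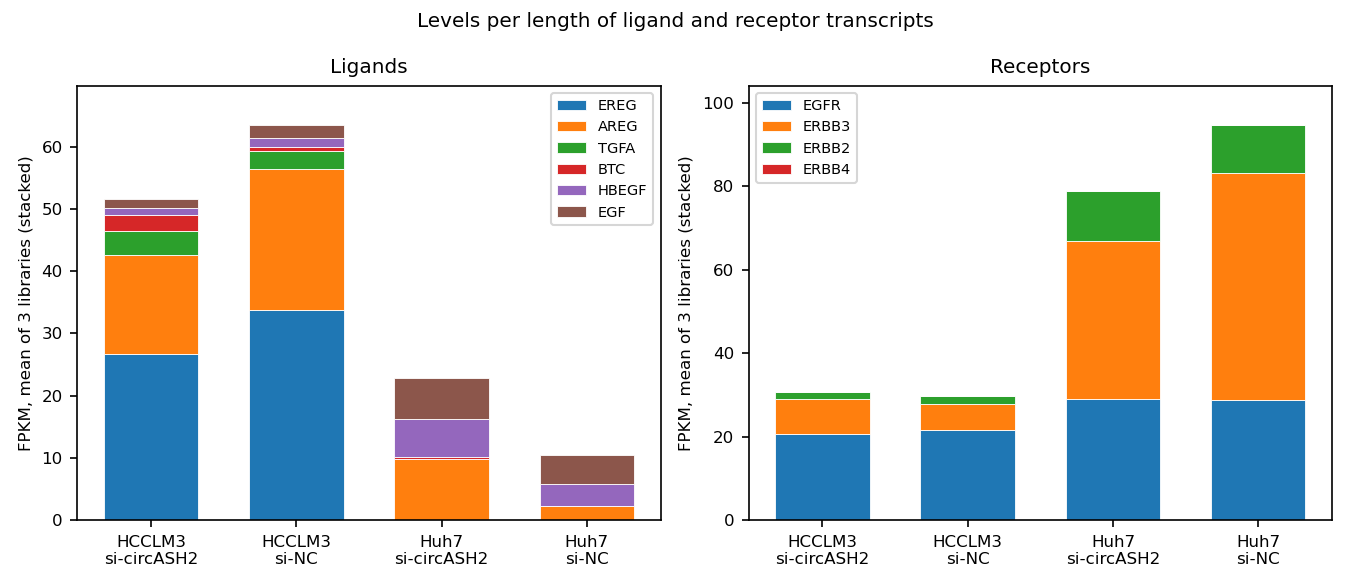
Deposited FPKM (mean of 3 libraries, stacked, linear axis from 0) of the ligands at left and the receptors at right in the 4 groups. EREG and AREG make up most of the ligand bars in HCCLM3, which reach 51.7 and 63.4 FPKM, while AREG, HBEGF and EGF make up the Huh7 bars at 22.8 and 10.5 FPKM. ERBB4 is too low to be seen.

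Lists of genes around the receptors were written from textbook knowledge, with earlier results of these data known. They were described by counts of calls and medians, to be read against the percentages over all genes above. The median log2 fold changes over all genes were 0 in HCCLM3 and 0.0136 in Huh7. Of 5 other EGF-family ligands, NRG1 and NRG4 passed the filter. NRG1, a neuregulin that binds ERBB3 and ERBB4, had 16.2 ± 0.274 CPM with si-circASH2 and 18.3 ± 0.158 CPM with si-NC in HCCLM3, and 3.68 ± 0.447 and 2.07 ± 0.601 CPM in Huh7 (SD, n = 3). It rose in Huh7 (log2 0.83 ± 0.158, adjusted p = 0.000243) and did not pass in HCCLM3 (log2 -0.18 ± 0.109, adjusted p = 0.241), and the difference between lines passed (-1.01 ± 0.192, adjusted p = 0.000445; edgeR quasi-likelihood test). NRG4 passed in neither line. Every gene of these lists said to rise or fall passed that test. EPGN, NRG2 and NRG3 held at most 25 counts in any group of 3 libraries.

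Among 11 genes of ligand shedding and trafficking, 2 were higher, 5 lower and 4 not past the threshold in HCCLM3 (median log2 -0.235), and 2 were higher, 1 lower and 8 not past in Huh7 (median -0.0433). RHBDF1, an inactive rhomboid that guides ADAM17 to the surface, fell by 0.49 ± 0.0769 in HCCLM3 and rose by 0.29 ± 0.0772 in Huh7 on the log2 scale, and ADAM15, a metalloprotease, rose by 0.39 ± 0.043 in HCCLM3. Among 15 receptor inhibitors and turnover genes, 2 were higher and 5 lower in HCCLM3, and 4 higher and 5 lower in Huh7. ERRFI1, a feedback inhibitor that binds the EGFR kinase, stood at 211 ± 5.78 CPM with si-circASH2 in HCCLM3, against 342 ± 7.66 CPM with si-NC (log2 -0.70 ± 0.0399, adjusted p = 3.81e-12), and fell less in Huh7 (log2 -0.16 ± 0.0404, adjusted p = 0.004; difference -0.54 ± 0.0567, adjusted p = 2.23e-07; edgeR quasi-likelihood test). The ubiquitin ligases CBL and CBLB, which mark EGFR for turnover, moved apart in HCCLM3, with CBL lower (log2 -0.40 ± 0.0496) and CBLB higher (log2 0.45 ± 0.0465).

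Of 14 endocytosis and sorting genes, 3 were higher and 3 lower in HCCLM3 and 4 higher and 0 lower in Huh7, with EPN1, an endocytic adaptor, higher in HCCLM3 (log2 0.54 ± 0.0404). Of 14 adaptors and effectors at the receptor, 5 were higher and 1 lower in HCCLM3 and 3 higher and 3 lower in Huh7. SHC1, the adaptor that links receptors to RAS, stood at 229 ± 3.38 CPM with si-circASH2 in HCCLM3, against 378 ± 5.91 CPM with si-NC (log2 -0.72 ± 0.0315, adjusted p = 3.66e-14, edgeR quasi-likelihood test), and fell by 0.14 ± 0.0316 in Huh7. GAB1, a docking protein, rose in HCCLM3 (log2 0.43 ± 0.0737) and fell in Huh7 (log2 -0.29 ± 0.073), and STAT3 rose in both lines (log2 0.29 ± 0.0403 and 0.50 ± 0.0402). In the RAS to ERK cascade of 15 genes, 0 were higher and 3 lower in HCCLM3 and 2 higher and 4 lower in Huh7.

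Of 15 genes that ERK signalling is known to induce, 0 were higher, 9 lower and 6 not past the threshold in HCCLM3 (median log2 -0.288), and 8 were higher, 1 lower and 6 not past in Huh7 (median 0.199). The difference between lines was called with a negative sign for 10 of them and with a positive sign for 0 (median -0.545). Among all genes tested it was called negative for 11.3% and positive for 9.6% (median -0.0156). The 6 genes DUSP5, DUSP6, FOSL1, PHLDA1, SPRED1 and SPRY4 were lower in HCCLM3 and higher in Huh7. The share of all genes tested with this pattern was not computed, so nothing is read from the number 6. DUSP6, an ERK phosphatase, had 111 ± 2.53 CPM with si-circASH2 and 154 ± 2.01 CPM with si-NC in HCCLM3, and 219 ± 6.32 and 167 ± 6.63 CPM in Huh7 (log2 -0.48 ± 0.0383 and 0.39 ± 0.0375). EGR1, an immediate early transcription factor, fell in HCCLM3 (log2 -0.90 ± 0.0678, adjusted p = 4.64e-10) and did not pass in Huh7 (0.01 ± 0.0668, adjusted p = 0.972; difference -0.91 ± 0.0952, adjusted p = 2.28e-07; edgeR quasi-likelihood test). These are transcript levels, and neither ligand protein nor ERK activity was measured.

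**Figure D5:**
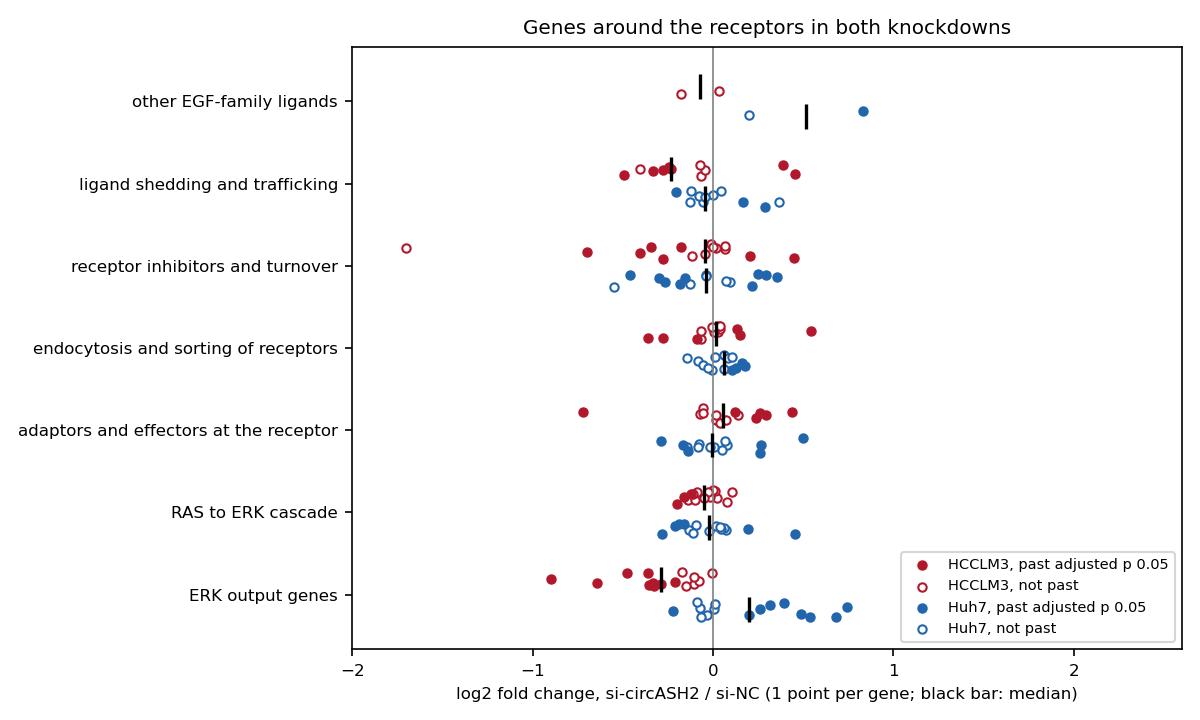
Knockdown log2 fold change of each tested gene of 7 lists, HCCLM3 (red) above Huh7 (blue) in each row, with filled points past an adjusted p of 0.05 and black bars at the median. In the row of ERK output genes the medians lie at -0.288 in HCCLM3 and 0.199 in Huh7. The farthest open red point is CBLC at -1.70, a gene under 0.30 CPM in both HCCLM3 groups and named after its values were seen.

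Profiles most like those of AREG and BTC were sought by Pearson's correlation of log2 CPM over the 12 libraries among 12828 genes. The closest to AREG were FAM214B (r = 0.987), ADIPOR2 (r = 0.986) and MICAL1 (r = 0.979), and the closest to BTC were FNBP1L (r = 0.984), KLHL24 (r = 0.983) and ZNF616 (r = 0.982). The points share 4 groups of 3 libraries, so r mainly follows the 4 group means, and it does not measure the size of a change. FAM214B, ADIPOR2 and MICAL1 were at 0.908, 0.984 and 0.889 of si-NC in HCCLM3, against 0.706 for AREG. In Huh7 they were at 1.48, 1.23 and 1.36, against 4.56 for AREG. FNBP1L and KLHL24 were each at 1.23 in HCCLM3 and at 1.14 and 1.21 in Huh7, against 3.82 and 2.92 for BTC. These genes were picked by profile, so no test is given. ZNF616, a zinc finger gene, had 29.4 ± 1.08 CPM with si-circASH2 and 13.2 ± 0.571 CPM with si-NC in HCCLM3, and 8.92 ± 0.862 and 3.37 ± 0.574 CPM in Huh7 (SD, n = 3).

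The 3′ untranslated regions of the members were searched for the word TTATACC, the word TATACCA and the word TCGGAGA, which an earlier look at these data had set beside the fold changes. TTATACC occurs in 2 of 10 members, EGFR and ERBB4, and in 9% of 13983 tested genes with an annotated region, while TATACCA (10%) and TCGGAGA (2.41%) occur in none of the members. The sites, in capitals with flanks from GENCODE 29 on GRCh38, are shown because EGFR, which holds one, changed past the threshold in neither knockdown.
EGFR, chr7:55211025-55211031, plus strand: cctcacaaaTTATACCtgggataaa
ERBB4, chr2:211380377-211380383, minus strand: ctttgtagaTTATACCtattttggg
The members called in the knockdowns, AREG, BTC, EREG, HBEGF, EGF and ERBB3, hold none of the 3 words in these regions. They are too few to set against the shares above, and a part of the words in the changes was not tested.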

How the data were processed

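RNA sequencing libraries were made from total RNA with an mRNA kit, per the labels' protocols. The authors deposited a table of raw counts per gene and a table of FPKM per gene, and what aligner, counter or strand setting made them is not given in the sources used here. Per the submitters' processing notes, builds named are mm10, GRCm38 and hg38, and the genes are human. Libraries of a group differed by more than sampling noise (chi-square per degree of freedom 3.89 to 8.53), so each counted once. Counts of 16946 genes kept by filterByExpr (minimum count 10) were scaled with TMM and fitted with the quasi-likelihood test of edgeR 4.0.16 in R 4.3.3, with 4 groups, 8 residual degrees of freedom and Benjamini-Hochberg adjustment at 0.05. The standard error is the absolute log2 fold change over the square root of F. It is left out for the si-NC ratios between lines of EREG and TGFA, where few Huh7 counts make it too small. The script was tested on simulated data. Alternatives used RLE and upper quartile factors, DESeq2 1.42.0, no filter, 1 line at a time, a replicate block, each library left out, and limma 3.58.1 on log2(FPKM + 0.1) and log2(FPKM + 1), which understates changes of low genes. An exact permutation test of 3 against 3 cannot go below 0.1. A count of 1 (1938 values) is rarer than 2 (6826) or 3 (4777), so the lowest counts are uncertain, and 3854 features carry assembler names. The members and lists were chosen with earlier results of these data known. Named genes were the 10 members, every gene of the list of other ligands and, from each other list, up to 3 genes per line with the smallest p past the threshold and at least 1 CPM in the higher group, from which examples are given. Positions came from GENCODE 29 and promoter windows from RefSeq, where 9 of 10 members matched. No protein sequence was used here, and the list of PI3K to AKT genes is not reported here.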

Additional observations from a re-analysis of the deposited data

Results flagged for a closer look

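Differences between the lines are given as the HCCLM3 knockdown log2 fold change minus the Huh7 one. The AREG value was -2.69, with 22.3 CPM with si-circASH2 and 31.6 CPM with si-NC in HCCLM3, and 13.9 and 3.05 CPM in Huh7, which is a description and no test, because it contains the Huh7 value by which the set was chosen. The next 3 members passed the test of the difference itself. HBEGF differed by -1.2, with 2.77 and 3.67 CPM in HCCLM3 and 16.6 and 9.54 CPM in Huh7. EGF differed by -0.924, with 8.14 and 10.8 CPM in HCCLM3 and 36.0 and 25.3 CPM in Huh7. ERBB3 differed by 0.903, with 50.6 and 38.0 CPM in HCCLM3 and 229 and 322 CPM in Huh7.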

How the results depend on the processing

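The knockdown calls of EGF and ERBB3 in both lines, of AREG in HCCLM3 and of BTC and HBEGF in Huh7 kept their direction and passed the threshold in all 21 alternatives. The count of members called, which includes AREG in Huh7 and BTC in HCCLM3 that chose the set, was 5 in each knockdown, 5 to 6 with a library left out, and 4 for the difference between lines, 4 to 5 with a library left out and 7 with limma on log2(FPKM + 1). With that setting the TGFA difference between lines turned to 0.24 and the CXCL1 one to -0.031, and the cause was not tested. With limma on log2(FPKM + 0.1), EREG lost its HCCLM3 call (adjusted p = 0.159) and no other tested member gained one. The HCCLM3 count was thus under 5 with limma on log2(FPKM + 0.1). The deviations of same-numbered libraries of the 2 arms correlated at 0.00262, 0.0205 and 0.104 in HCCLM3 and -0.203, 0.0208 and 0.00356 in Huh7. No steady shared deviation by number was thus seen. Whether the numbers pair the samples is not settled, since pairs with little in common would look the same. With the replicate block, 5 members were called in each knockdown, 4 for the difference and 9 for the baseline, and the genes called were 5215 in HCCLM3 (5182 without the block), 5349 in Huh7 (5314 without) and 3533 for the difference (3538 without). Depth limits EREG, TGFA and ERBB4 in Huh7 and ERBB4 in HCCLM3, which lie at or near the floor.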
